A study of Mus musculus with 247 samples.

Results

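RNA polymerase II regions at transcript ends are stretches of the genome where polymerase was enriched in chromatin immunoprecipitation and whose centre lies at the annotated end of a transcript. The members are all regions whose deposited annotation begins with TTS, the label that the peak annotation program HOMER gives from 100 bases before to 1000 bases after a transcript end. They number 1208 of 23360 polymerase regions. The comparison set is the promoter regions (annotation promoter-TSS, 3926 in all) of the same genes, as the deposited gene column names them. The 1208 end regions carry 1174 gene names, and 210 of these genes also have a promoter region. Those 210 genes hold 215 end regions and 214 promoter regions.

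The cells are RAW264.7, a mouse macrophage line of BALB/c origin. The study asks how the corepressors GPS2 and SMRT act at enhancers and silencers during inflammatory activation. Polymerase and the Mediator subunit MED1 were each measured in 2 libraries of wild-type (WT) cells and 2 libraries of GPS2 knockout (KO) cells, all treated with lipopolysaccharide (LPS), a bacterial cell wall component that activates macrophages, for 2 hours. Every polymerase library is therefore LPS treated, and no untreated polymerase library enters the comparison. Chromatin was fixed with disuccinimidyl glutarate and then formaldehyde. Poly(A) RNA was measured in 4 libraries each of WT and KO cells (CRISPR_GPS2_KO in the labels), untreated or after 6 hours with 10 ng/ml LPS. The labels do not say whether the KO cells are 1 clone or whether libraries came from separate cultures, so p-values measure the spread between these libraries, which may be technical.

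RNA polymerase II does not stop at the end of a gene. The cleavage and polyadenylation complex recognizes the poly(A) signal in the nascent RNA and cuts the RNA past it. Polymerase runs on for a distance before an exonuclease that degrades the trailing RNA helps to release it. Polymerase therefore gathers past the ends of active genes, and in short, heavily transcribed genes that signal can merge with the one at the start. Replication-dependent histone genes are an exception, since their RNAs end at a stem-loop and carry no poly(A) tail.

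The last 30 bases of transcripts at selected changed ends show both kinds of ending. Each of those printed holds a signal or a stem-loop. Fkbp15 and Kbtbd11, also among the most changed ends, held neither in their last 30 bases. Bases are from mouse build mm9 (NCBIM37), read 5′ to 3′ on the transcript strand at the transcript ends given in the deposited RNA table. Capitals mark AATAAA or ATTAAA, the common poly(A) signals, or the histone stem-loop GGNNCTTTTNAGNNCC. The first 5 belong to ends that were higher in KO cells relative to all regions, and the last 5 to ends that were lower.
Slpi, chr2:164179806-164179835, minus strand: AATAAATAAAcgcattcatttctctatgca
Isg15, chr4:155573533-155573562, minus strand: atgatgcAATAAAaagctctgcctcttgtt
Gadd45a, chr6:66985090-66985119, minus strand: atctaaAATAAActggtatggaataattgt
Ccl4, chr11:83478156-83478185, plus strand: ttttcatAATAAAtctttctttaagatata
Ccl2, chr11:81850925-81850954, plus strand: ATTAAAagaaatatattatttttgtacacc
Ctsf, chr19:4860889-4860918, plus strand: gggcAATAAAgaggtagcctgctctccttg
Bola1, chr3:96000511-96000540, minus strand: tgatAATAAAagagaagctggtgcatgagg
H3c11, chr13:21874784-21874813, minus strand: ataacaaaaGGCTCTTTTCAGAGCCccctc
H4c11, chr13:21827296-21827325, plus strand: tttccctaaaGGTCCTTTTCAGGACCacca
H4c6, chr13:23643155-23643184, minus strand: tttctcaaaGGCCCTTTTCAGGGCCaccca
In Slpi 2 copies of AATAAA overlap. Transcript coordinates were found for 832 members. On the transcript strand, the last 50 bases held AATAAA in 550 of the 832 (66.1%) and either poly(A) signal in 647 (77.8%). Over all 14355 transcripts of the RNA table the shares were 62.4% and 77.0%, so the members' transcripts resemble the rest in this window. The stem-loop was found in 3 of the 832 (0.361%) and in 37 of all 14355 transcripts (0.258%).

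Far fewer reads fell in polymerase regions in KO than in WT libraries. Of 10230448 and 11113625 mapped reads in the WT libraries, 46.4% and 45.0% lay in the 23360 regions, against 14.2% and 14.4% in the KO libraries, where 11023616 reads were mapped in replicate 1. Outside the regions the libraries held 2.15 and 2.21 reads per kilobase per 10000000 mapped reads in WT and 3.45 and 3.44 in KO. A loss of polymerase across the genome and a weaker enrichment in the KO libraries cannot be told apart. Changes are therefore given in log2 after scaling by a trimmed mean of M values, which removes a shift of -1.89 (3.70 times lower in KO) common to the regions. A scaled change of 0 means that a region fell as much as the regions in general. Replicate libraries differed little more than counting noise, with a chi-square per region of 1.103 between the WT and 1.031 between the KO libraries, against 24.5 between WT and KO replicate 1.

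In deposited values, which are reads per 10000000 mapped reads, polymerase at transcript ends fell in nearly every member. All end regions together held 359262 and 352063 in the WT libraries and 112032 and 113208 in the KO libraries. Only 49 of the 1208 ends (4.06%) had a higher mean in KO than in WT, and in 38 of these the libraries of the groups did not overlap. A higher mean in KO was found in 5.09% of all regions and 0.815% of promoter regions. Without overlap the shares were 3.15% of the ends, 3.66% of all regions and 0.586% of promoter regions.

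After scaling, the ends moved in both directions. Of 1199 members with enough reads for the test, 290 (24.2%) were called higher in KO and 174 (14.5%) lower (limma with precision weights over all 23081 regions tested, Benjamini-Hochberg adjusted p under 0.05). Over all regions 44.3% were called, 23.3% higher and 21% lower, so the share called higher is near the background and the share called lower is below it. The median scaled change was 0.11 over the ends and -0.03 over all regions. Introns (median 0.07), intergenic regions (0.02) and 3′ untranslated regions (0.19) had like medians, while all promoter regions had -0.27. Subtracting each library's uniform background left 237 ends higher and 191 lower and moved their median to -0.08, while that of all regions moved to -0.20 (4675 higher and 4212 lower of 22265). Of the calls, 214 higher and 133 lower were made under both settings, and none turned.

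**Figure D1:**
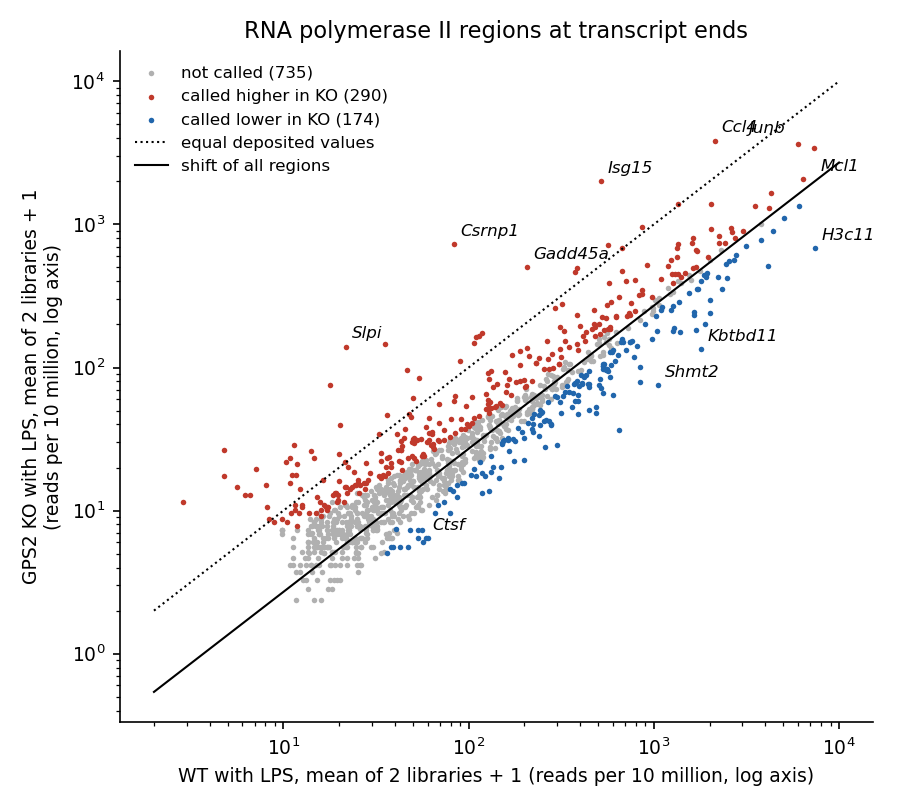
Each point is 1 of the 1199 tested transcript-end regions, at its mean deposited value + 1 in the 2 WT libraries (horizontal) and the 2 KO libraries (vertical), both on log axes in reads per 10000000. Most points lie under the dotted line of equal values and around the solid line, the shift of all regions by -1.89 in log2; Csrnp1, Slpi, Isg15, Gadd45a and Ccl4 lie above the dotted line.

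The 8 largest rises were at the ends of Csrnp1, Slpi, Pla1a, Tnfrsf1b, Isg15, Gadd45a, Fkbp15 and Ccl4. The end region of Csrnp1, which encodes a nuclear protein of the early response to signals, lies at chr9:119875219-119885087. It held 84.06 and 80.98 reads per 10000000 in WT and 726.62 and 732.34 in KO. This is 8.84 times more in deposited values and a scaled change of 5.00 (SE 0.115, adjusted p = 9e-31, limma). The Csrnp1 region is 9868 bases wide, and its centre is 11988 bases past the gene's start, so it does not reach the promoter.

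Slpi encodes a secreted inhibitor of leukocyte proteases. At chr2:164176910-164182797 its end held 23.46 and 18 in WT and 124.28 and 153.41 in KO (scaled change 4.52, SE 0.233, adjusted p = 3.62e-19, limma). The authors' peak calling found this region in the KO libraries only. The region also holds the start of Mir7678, a microRNA gene.

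Isg15, an interferon-induced protein that is joined to other proteins as ubiquitin is, gave the deepest of these regions after Ccl4. Its 22461-base region at chr4:155562332-155584793 spans the whole short gene, start included. Values were 538.59 and 499.39 in WT and 1964.87 and 2028.08 in KO (scaled change 3.83, SE 0.0496, adjusted p = 3.99e-39, limma). Both KO libraries lay above both WT libraries.

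Ccl4, a chemokine that attracts monocytes and lymphocytes, held 2138.71 and 2160.41 in WT and 3892.55 and 3812.35 in KO. The Ccl4 region at chr11:83473437-83483793 was thus 1.79 times higher in deposited values (scaled change 2.72, SE 0.0258). At Gadd45a, a gene induced by DNA damage and other stress, values went from 202.34 and 206.95 to 512.54 and 493.09 (scaled change 3.17). Both regions hold a transcription start.

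The other 3 named rises were at narrower regions without a transcription start. The end of Pla1a, a phospholipase that acts on phosphatidylserine, held 36.17 and 32.39 in WT and 143.33 and 144.28 in KO (scaled change 3.88). At Tnfrsf1b, one of the receptors for tumour necrosis factor, values were 18.57 and 15.30 against 83.46 and 65.75 (scaled change 3.88). At Fkbp15, an FK506-binding protein gene, they were 50.83 and 39.59 against 102.51 and 88.57 (scaled change 2.92). In all 8 named rises the lowest KO library was above the highest WT library before any scaling. The naming rule required separate libraries in scaled values, and each of these rises was larger than the shift that scaling removes. A higher KO mean in deposited values therefore follows from the choice and is no added support.

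By the same rule the 8 largest falls were at the ends of 3300002P13Rik, Shmt2, Kbtbd11, Ctsf, H3c11, Bola1, Zfp710 and Duox1. The region at the end of 3300002P13Rik fell the most, from 642.20 and 649.65 to 37.19 and 33.79, which is 18.2 times lower in deposited values (scaled change -2.29, SE 0.166, adjusted p = 1.17e-14, limma). Shmt2, the mitochondrial serine hydroxymethyltransferase of one-carbon metabolism, went from 1063.49 and 1046.46 to 76.20 and 72.14 (scaled change -1.94). The Shmt2 region at chr10:126948183-126959844 also holds the start of its neighbour Ndufa4l2, and reads of the pair cannot be separated.

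At Kbtbd11 values were 1804.42 and 1799.59 in WT and 124.28 and 142.45 in KO (scaled change -1.87). Ctsf encodes the lysosomal protease cathepsin F. Its 1677-base end region held 61.58 and 54.89 in WT and 9.07 and 1.83 in KO (scaled change -1.78, SE 0.444, adjusted p = 0.00118, limma). Without KO replicate 2 the Ctsf change was -0.74 (adjusted p = 0.0753) and no longer called.

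At Bola1, a mitochondrial protein of iron-sulfur cluster assembly, values were 862.13 and 828.71 against 79.83 and 75.79 (scaled change -1.55). At Zfp710, a zinc-finger gene, they were 307.90 and 288.83 against 25.40 and 30.13 (scaled change -1.52). At Duox1, a dual oxidase that makes hydrogen peroxide, they were 63.54 and 47.69 against 4.54 and 5.48 (scaled change -1.48). In the 8 named falls no KO library reached a WT library, but the naming rule required this in scaled values. Scaling raises KO relative to WT, so the same separation in deposited values follows and is no added support.

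**Figure D2:**
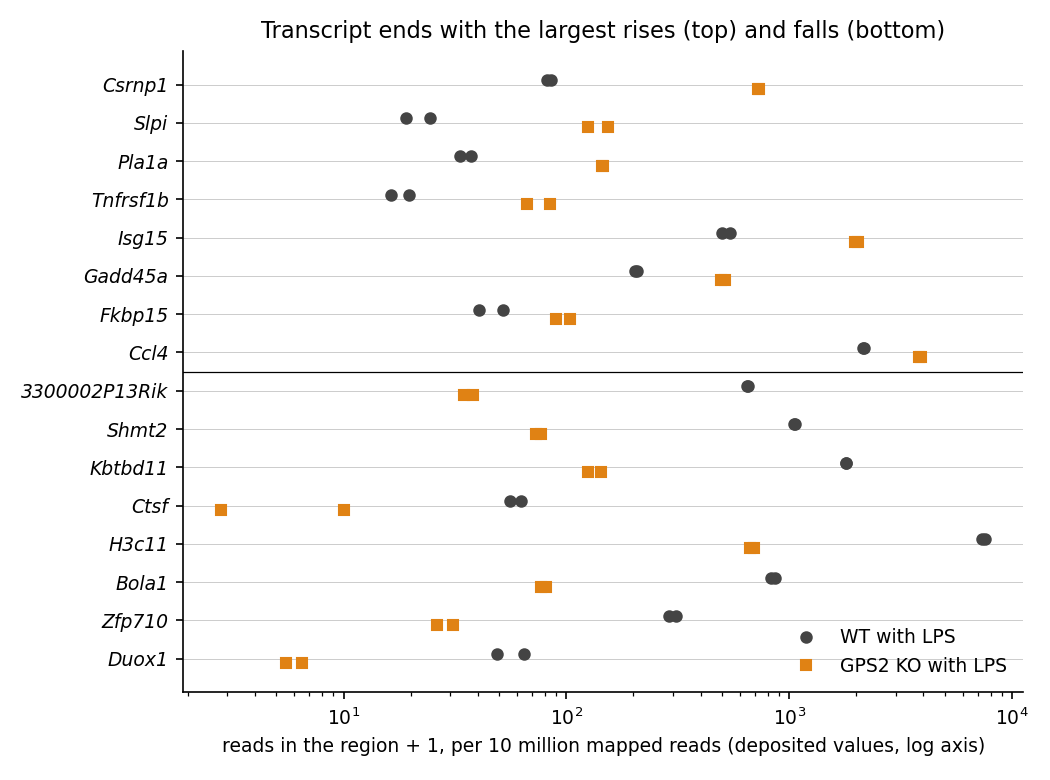
Deposited reads per 10000000 + 1 (log axis) in each library for the 8 transcript ends with the largest scaled rise and the 8 with the largest fall; circles are the 2 WT and squares the 2 KO libraries, all with LPS. In the upper rows the KO squares lie right of the WT circles (Csrnp1 726.62 and 732.34 against 84.06 and 80.98), and in the lower rows left of them.

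The 5 members with the highest WT level were wide regions that cover whole active loci and hold a transcription start. They were H3c11, Mcl1, Kcnn4, Fzr1 and Junb. Mcl1, which protects cells from apoptosis, held 7348.65 and 7354.94 in WT and 3415.39 and 3437.97 in KO, so it fell 2.15 times in deposited values and rose by 0.78 relative to the regions in general. Junb, an AP-1 subunit of the immediate early response, held 6189.37 and 5861.27 against 3684.82 and 3639.77 (scaled change 1.17).

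Kcnn4, a calcium-activated potassium channel, held 6467.95 and 6311.17 in WT and 2027.47 and 2148.62 in KO (scaled change 0.27). At Fzr1, an activator of the anaphase-promoting complex, values were 6206.96 and 5881.07 against 1331.69 and 1373.36. Its scaled change of -0.27 became 0.06 with background subtracted, so its direction depends on that step. The KO libraries of Kcnn4 and Fzr1 were below the WT libraries in deposited values.

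Among the effectors of the inflammatory response, 2 of 18 listed chemokine genes had an end region, Ccl4 and Ccl2. Both were called higher, as were 23.3% of all regions. Ccl2, which recruits monocytes, held 600.17 and 536.28 in WT and 732.97 and 705.86 in KO (scaled change 2.23, SE 0.0599, adjusted p = 1.54e-28, limma). Of 24 cytokines and mediators 2 had an end region. Edn1, the precursor of the vasoconstrictor endothelin, rose from 3.91 and 3.60 to 15.42 and 17.35 (scaled change 3.46, SE 0.464). Tnfsf9, a co-stimulatory ligand of the tumour necrosis factor family, fell (scaled change -0.40), with 1269.74 and 1195.83 against 237.67 and 266.64.

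Interferon-stimulated genes had 4 end regions among 30 listed genes. Of these 3 were called higher and none lower (23.3% and 21% of all regions), with a median of 0.85, against 0.11 over all ends. Besides Isg15 they were Irf7, the factor that amplifies type I interferon, with 682.28 and 655.95 in WT and 472.62 and 472.09 in KO (scaled change 1.38), and Oas1a, an antiviral synthetase, with 288.35 and 328.43 against 96.16 and 114.14 (scaled change 0.33). Oas1a was no longer called when WT replicate 1 (0.21, adjusted p = 0.13) or KO replicate 2 (0.23, adjusted p = 0.249) was left out, or with background subtracted (0.32, adjusted p = 0.116). Ddx58, the RNA sensor RIG-I, was not called, with 10.75 and 9.90 against 1.81 and 5.48. Isg15, already among the largest rises, was the only 1 of the 4 with higher deposited values in KO.

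For the brakes and early factors the picture was mixed. Of 24 feedback genes of NF-κB signalling 2 had an end region. Irak3, an inhibitor of Toll-like receptor signalling, was lower (195.49 and 200.65 against 37.19 and 25.57, scaled change -0.79), and was not called when KO replicate 2 was left out (-0.50, adjusted p = 0.0882). Tnip1, a partner of the deubiquitinase A20, was called higher with few reads (9.77 and 4.50 against 14.51 and 4.57, scaled change 1.90), and was not called when WT replicate 2 was left out (1.45, adjusted p = 0.0893). Its libraries overlap in deposited values. Of 20 immediate early genes, Junb was higher and Klf2, a factor that restrains macrophage activation, was not called (1013.64 and 940.29 against 277.59 and 252.94, scaled change 0.0049, adjusted p = 0.963, limma). With background subtracted Klf2 was called higher (0.27, adjusted p = 0.0126).

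Replication-dependent histone genes had 5 end regions among 64 listed genes, with a median of -0.88. Of these ends 2 were called higher and 3 lower, against 23.3% and 21% of all regions. The H3c11 region, 16319 bases in the histone cluster of chromosome 13, had the highest WT level of all ends. It held 7571.52 and 7332.44 in WT and 693.06 and 662.94 in KO (scaled change -1.57, SE 0.0402, adjusted p = 2.83e-29, limma). The deposited gene column names Hist1h1b for this region, so it holds more than 1 histone gene.

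H4c11 fell from 1709.60 and 1678.12 to 179.61 and 184.45 (scaled change -1.33), and H4c6 from 2084.95 and 1947.16 to 302.99 and 290.38 (scaled change -0.88). These are the 3 genes whose stem-loops are printed above. By contrast H4c17 (249.26 and 231.25 against 108.86 and 122.36, scaled change 0.83) and H4c18 (547.39 and 558.77 against 205.92 and 232.85, scaled change 0.55) were higher, the latter being outside the rule for named genes. So the histone ends did not move as 1 group. Histone RNAs lack poly(A) tails, and the poly(A) libraries held under 1 read per 10000000 for H3c11, H4c11 and H4c6 in every LPS library.

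Genes of cytosolic ribosomal proteins were the best represented list, with 15 end regions among 65 genes. Of these ends 6 were called higher and 3 lower, against 23.3% and 21% of all regions. The median scaled change of these ends was 0.09, near that of all ends. With background subtracted 11 were higher and 0 lower, with a median of 0.37, so the calls of this list depend on that step. Under that setting 4675 of all 22265 regions were higher and 4212 lower, and the median over all ends was -0.08. That comparison is not matched for read density. Ends with 40 to 80 scaled reads per kilobase over all 4 libraries had a background-subtracted median of 0.31, and denser ends 0.72. Rps20 held 85.3. The extremes were Rps20, with 1255.08 and 1227.32 in WT and 567.87 and 566.15 in KO (scaled change 0.75), and Rps18, with 2612.79 and 2489.74 against 556.08 and 551.54 (scaled change -0.32). With background subtracted the Rps18 change was 0.00018. Rpl15 (0.51) and Rps26 (0.41) were also called higher. These genes are short, and the regions named here hold a transcription start.

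In metabolism and the lysosome the lists held 2 end regions each. Tpi1, a glycolytic isomerase, was lower (2400.68 and 2284.58 against 339.27 and 369.82, scaled change -0.84), while Gpi1 was not called (scaled change -0.21). Npc2, which carries cholesterol out of lysosomes, was higher (148.58 and 162.86 against 97.06 and 86.75, scaled change 1.11), while Npc1 was not called (0.40). In the integrated stress response, Shmt2 was lower and Sars, a seryl-tRNA synthetase, was not called (scaled change -0.38, adjusted p = 0.0625, limma). Sars was called lower with a pseudocount of 5 (-0.36, adjusted p = 0.0431) and without WT replicate 2 (-0.43, adjusted p = 0.0267).

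Of 26 genes for 3′ end processing and termination factors, 3 had an end region. Wdr33, the subunit that binds the poly(A) signal, was lower (605.06 and 559.67 against 127.91 and 127.84, scaled change -0.30). It was not called when KO replicate 2 was left out (-0.28) or with background subtracted (-0.20, adjusted p = 0.133, limma). The Wdr33 region also holds the start of its neighbour Sft2d3. Cpsf1 (scaled change -0.51, adjusted p = 0.081) and Cstf1 (0.05, adjusted p = 0.865), subunits of the cleavage complexes, were not called (limma). Cpsf1 was called lower without WT replicate 1 (-0.66, adjusted p = 0.0111), without KO replicate 2 (-0.79, adjusted p = 0.0451) and with background subtracted (-3.36, adjusted p = 0.032). Of 12 polymerase II subunits, Polr2i was lower (257.08 and 237.55 against 42.64 and 52.96, scaled change -0.49), but not when KO replicate 1 was left out (-0.35, adjusted p = 0.159). The Polr2i region also holds the start of its neighbour Tbcb. Polr2j was not called (scaled change -0.39), but was with background subtracted (-1.80, adjusted p = 0.0421, limma).

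None of the 6 listed genes of the GPS2 corepressor complex had an end region of its own. The end region whose nearest start is that of Gps2 belongs to Eif5a, a translation factor, at chr11:69722432-69736910. It held 2256.01 and 2254.89 in WT and 844.55 and 818.17 in KO (scaled change 0.44). None of the listed macrophage, fibroblast and epithelium, or granulocyte and dendritic cell markers had one either. Of the lymphocyte markers Cd4 had one with few reads (15.64 and 18.90 against 4.54 and 2.74), not called, in a region that also holds the start named Gpr162, while Cd4 RNA was at most 0.827 reads per 10000000 with LPS.

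Transcript-end regions were of 2 kinds. In 369 (30.5%) the nearest transcription start lay inside the region. These were wide, with a median of 7013 bases, and held a median of 64.0 reads per kilobase per 10000000 in WT. The other 839 were end regions proper, with a median width of 1686 bases and 23.7 reads per kilobase in WT. Promoter regions had a median width of 2118 bases and 62.2 reads per kilobase. Where transcript coordinates were known, 75.6% of members covered the annotated end itself, and the median region reached 1812 bases past it (quartiles 1268 and 3375).

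The deposited gene column often names a neighbour. It names the gene with the nearest start, and only 612 of 1208 members have an annotated transcript of that gene. In the other 596 the transcript that ends there belongs to another gene, so gene names here are those of the transcript that ends in the region. The centre of these 596 lay a median of 4387 bases from the nearest start. Peak calling also differed between genotypes: 575 ends (47.6%) were found in WT libraries only and 17 in KO libraries only, against 914 (23.3%) and 6 of the promoter regions. Over all regions 44.2% were found in WT only and 1.88% in KO only, near the shares of the ends.

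The kinds differed in what else was found there. MED1 regions overlapped 87.5% (95% Wilson interval 83.8 to 90.5) of the ends that hold a start, 18.8% (16.3 to 21.6) of those that do not, and 86.9% (85.8 to 87.9) of promoter regions. Open chromatin by ATAC-seq in untreated cells was found at 96.5%, 46.4% and 98.2% of the same sets. Over all 1208 ends the shares were 39.8% for MED1, 36.8% for PU.1, the macrophage lineage factor, 37.8% for JunB and 61.7% for ATAC-seq. PU.1 and JunB sites are those of all treatments merged. No site of any of these 4 assays overlapped 429 ends (35.5%). The intervals cover the number of regions only. Where the centre of the end region had to lie inside the site, the shares over all ends were 21.4%, 5.88%, 5.46% and 25.2%. By that rule ATAC-seq sites were found at 26.8% of ends with a start and 24.6% of those without, PU.1 at 3.79% and 6.79%, and JunB at 4.61% and 5.84%, with overlapping intervals for each of the 3. MED1 was at 36.3% and 14.9%.

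Ends with and without a start also differed in their scaled changes. Of 369 ends with a start 99 were called higher and 121 lower (median -0.08), and of 830 tested ends without one 191 were higher and 53 lower (median 0.19). The shares called higher were 26.8% with a start and 23.01% without, both near the 23.3% of all regions. The shares called lower were 32.8% and 6.39%, above and below the 21% of all regions. The kinds thus differed mainly in the share called lower. This difference was not tested. With background subtracted the counts were 120 and 90 of 369 (median -0.02) and 117 and 101 of 793 (median -0.14), so the order of the medians reversed. The background differs between the genotypes and makes up more of a region with few reads.

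Ends without a start were set beside promoter regions of like read density, and the outcome depended on which libraries gave the density. By the mean of all 4 scaled libraries, at 20 to 40 reads per kilobase, 127 such ends had a median scaled change of 0.49 and 2151 promoter regions -0.31. By the WT libraries alone, a grouping added after the data were seen, at 40 to 80 deposited reads per kilobase, 73 ends had a median of -0.19 and 2064 promoter regions -0.27. With background subtracted the latter medians were -0.18 and -0.24. The first grouping includes the KO libraries, so a region that is high in KO moves to a denser group, and the second does the reverse. Neither gives a comparison free of the change itself.

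Set against the promoter that the gene column pairs it with, a transcript end lost less polymerase in most pairs, in the values as deposited. In 122 of the 206 pairs with enough reads the end belongs to the gene with the promoter, and in the other 84 to another gene nearby. Of the 206 pairs, 39 (18.9%) had an end that rose relative to its promoter and 10 (4.85%) one that fell (limma on the difference, adjusted p under 0.05). The median difference was 0.41, made up of a median end change of 0.23 and a median promoter change of -0.24, and it was above 0 in 146 genes (70.9%). In 33 of the 39 genes the end was above and the promoter below the general shift. With each library's uniform background subtracted, a setting added after the data were seen, 10 genes were higher and 13 lower of 195, and the median difference was 0.03. Of the 49 called genes 19 were called under both settings, all in the same direction. Where the end was the gene's own, the median difference was 0.41 (19 higher, 3 lower), or 0.032 with background subtracted (7 and 5). Where it was another gene's, it was 0.39 (20 and 7), or 0.0048 (3 and 8).

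The split by density was made in the same 2 ways. For 31 genes whose end held 20 or more scaled reads per kilobase over all 4 libraries the median difference was 0.28, or 0.23 with background subtracted, but this grouping draws in ends that are high in KO. For 16 genes whose end held 40 or more deposited reads per kilobase in WT it was 0.16, or 0.063. For the other 190 genes it was 0.42, or 0.0016. The promoter regions paired with these ends, 214 in all, had 33 called higher and 67 lower, against 23.3% and 21% of all regions, and a median of -0.23, or -0.14 with background subtracted.

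In library totals, which are ratios of summed reads, the KO libraries also held more end reads per promoter read. End regions of the genes with both kinds held 0.322 and 0.343 reads per promoter read in the WT libraries and 0.481 and 0.468 in the KO libraries. With background subtracted the ratios were 0.308 and 0.328 against 0.412 and 0.397. The groups did not overlap either way, although with 2 libraries against 2 the exact two-sided permutation test gives p = 0.3333, the smallest it can give. The share of region reads at ends was 7.74% and 7.82% in WT and 7.90% and 7.87% in KO (exact permutation p = 0.3333), while the share at promoters was 18.7% and 18.2% against 14.9% and 15.1%.

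**Figure D3:**
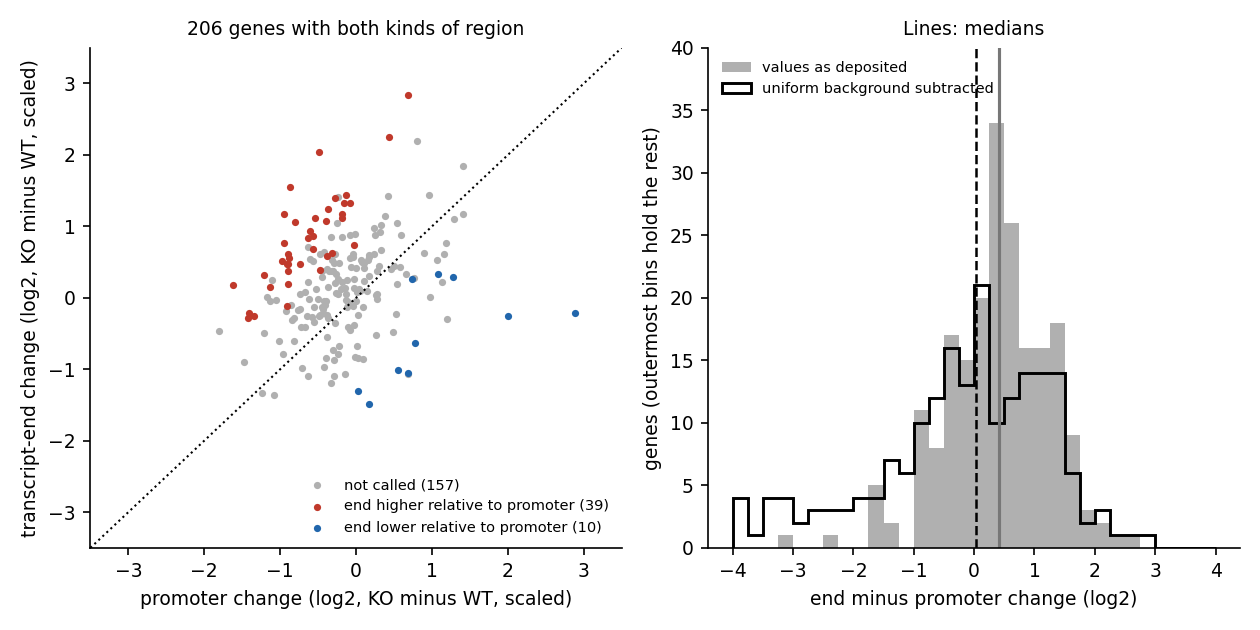
Left, scaled change at the transcript end (vertical) against that at the promoter (horizontal) that the gene column pairs with it, for 206 pairs (122 of them of 1 gene), in log2 KO minus WT; the dotted line marks equal changes. Right, histogram of the end minus promoter difference as deposited (filled, median 0.41) and with a uniform background subtracted (outline, 195 genes, median 0.03).

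Named genes showed what stands behind these differences. Next to Gramd1b, which carries cholesterol between membranes, the end region is that of a neighbour, 1700110K17Rik. It held 826 and 898 reads per 10000000 in WT and 974 and 954 in KO, while the promoter regions named Gramd1b held 393 and 381 against 90.7 and 61.2. The ratio of end to promoter rose from 2.10 and 2.36 to 10.7 and 15.6 (difference 2.53, SE 0.164, adjusted p = 3.46e-05, limma).

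At Tbrg1, Trp53rkb and Zfp110 the end belonged to the gene itself. The end of Tbrg1 held 61.6 and 48.6 in WT and 21.8 and 21 in KO, and its promoter 249 and 210 against 38.1 and 25.6. The ratio of end to promoter at Tbrg1 rose from 0.247 and 0.232 to 0.571 and 0.821 (difference 1.49, SE 0.277, adjusted p = 0.0109, limma). At Trp53rkb it rose from 1.07 and 1.32 to 3.95 and 2.5 (difference 1.37), and at Zfp110 from 0.267 and 0.231 to 0.559 and 0.667 (difference 1.28). With background subtracted the difference at Zfp110 was 0.56 (adjusted p = 0.482), while Gramd1b, Tbrg1 and Trp53rkb remained called.

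Falls relative to the promoter were rarer, and 4 met the level set for naming. At Dnaja1, an HSP40 co-chaperone, the end held 171 and 191 in WT and 60.8 and 59.4 in KO, and the promoter 552 and 498 against 336 and 355 (difference -0.99, SE 0.169, adjusted p = 0.00769, limma). The promoter of Dnaja1 thus rose by 1.28 relative to the general shift while the scaled change of its end was 0.29. Near Srsf5, a splicing factor, the ratio fell from 0.799 and 0.944 to 0.520 and 0.514 (difference -0.75), with the end being that of Slc10a1.

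Near Rara, the retinoic acid receptor alpha, the end is that of Cdc6, a replication licensing factor. It held 155 and 133 in WT and 20.0 and 11.9 in KO (difference -1.33, adjusted p = 0.0224, limma), which was not called when KO replicate 2 was left out (-1.23, adjusted p = 0.0558). At Ubald1 the difference was -0.47, and it was not called without WT replicate 2 (-0.38, adjusted p = 0.0532) or without KO replicate 2 (-0.38, adjusted p = 0.132). In Dnaja1, Srsf5, Rara and Ubald1 every KO ratio was below every WT ratio.

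MED1, measured in other libraries of cells treated the same way, changed little at the ends. In the 4 MED1 libraries 14.6% and 14.6% (WT) and 8.81% and 8.92% (KO) of mapped reads lay in MED1 regions, so these values too are scaled. Of 626 tested MED1 regions that overlap a transcript end, 38 (6.07%) were called higher and 9 (1.44%) lower, close to the background of 5.00% and 2.00% over all 26052 MED1 regions (limma). Without WT replicate 1 the counts were 22 and 4, and without WT replicate 2 they were 23 and 7. Library totals, with no scaling, gave 0 higher and 476 lower.

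Of the 8 named rises 7 had a MED1 region, and MED1 was called higher after scaling at 5 of them. At Ccl2, which is not among the 8, the MED1 region held 148.06 and 127.02 in WT and 159.03 and 162.58 in KO (scaled change 0.99, SE 0.11, adjusted p = 3.81e-11, limma). At Isg15 the values were 293.05 and 281.26 against 278.08 and 295.00 (scaled change 0.77), and at Slpi 39.82 and 29.23 against 47.80 and 37.71 (1.05). Csrnp1 (0.49), Pla1a (0.66), Ccl4 (0.40) and Junb (0.58) were also called higher after scaling. In deposited values MED1 at Csrnp1, Ccl4 and Junb was below WT in both KO libraries (Ccl4 1157.92 and 1141.17 against 904.64 and 879.96). At Pla1a the libraries overlapped (185.84 and 210.69 against 179.02 and 187.73). Gadd45a (0.28, adjusted p = 0.162) and Tnfrsf1b (1.32, adjusted p = 0.0623) were not called (limma). At falling ends scaled MED1 was lower at H3c11 (-0.23, adjusted p = 0.0322) and higher at H4c6 (0.51, adjusted p = 0.0135) and Tpi1 (0.42, adjusted p = 0.01, limma). In deposited values the KO libraries at H4c6 and Tpi1 were below the WT libraries. Over 479 ends with a MED1 region, polymerase and MED1 changes had a Pearson correlation of 0.34 and a Spearman correlation of 0.24 across regions, as a description.

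RNA was read at 6 hours in other libraries, against 2 hours for polymerase. The targeted gene, Gps2, held 374, 373, 371 and 399 reads per 10000000 in the WT libraries with LPS and 66.3, 77.1, 84.9 and 82.7 in the KO libraries (log2 change -2.28, SE 0.0785, adjusted p = 5.41e-12, limma), so its RNA was lower and not absent. Macrophage genes were present, with all 10 listed markers detected. Csf1r lay between 2532 and 4533 in WT and between 9726 and 10078 in KO with LPS (log2 change 1.39). Lyz1 (0.73), Adgre1 (0.66), Lyz2 (0.63), Mrc1 (0.57) and Itgam (0.42) were also called higher. Spi1 (-0.53), Fcgr1 (-0.48) and Cd14 (-0.25) were called lower, and Cd68 was not called. Among the listed fibroblast and epithelium markers, Col1a1 was at most 0.627 with LPS. Pecam1, of the same list, lay between 1.74 and 6.32 in the libraries with LPS. Among granulocyte and dendritic cell markers, S100a8 was called higher (1.02), Xcr1 lower (-1.18) and Zbtb46 not called. The WT library with LPS of replicate 4 stood apart from the other 3 at many named genes (Ccl4 41018 against 17607, 19816 and 22016).

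RNA calls were little related to the call at the end. Of 1123 genes with an end region and an RNA value, 1026 were tested, and 180 (17.5%) were called higher in KO with LPS and 285 (27.8%) lower. Over all 11791 transcripts tested 44.1% were called, 22.1% higher and 22.1% lower. Leaving out WT replicate 4 gave 281 and 340 of 1032. Of 246 ends called higher with an RNA test, RNA was called higher in 53 (21.5%) and lower in 80 (32.5%), and of 147 ends called lower, it was higher in 24 (16.3%) and lower in 45 (30.6%), near the shares over all genes with an end region. Median RNA changes were -0.07 for ends called higher, -0.16 for ends called lower and -0.05 for ends not called. Across 1019 ends the correlation was 0.12 (Pearson) and 0.08 (Spearman). Without WT replicate 4 the counts were 81 and 90 of 249 and 39 and 53 of 148, the medians -0.03, -0.05 and -0.02, and the correlations 0.09 and 0.04.

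Slpi, Edn1, Gadd45a and Ccl2 rose in both measures. Slpi RNA was 61.0, 69.6, 59.2 and 110 reads per 10000000 in WT with LPS and 860, 898, 855 and 882 in KO (log2 change 3.58, SE 0.177, adjusted p = 3.27e-10, limma). Edn1 RNA was 766, 856, 871 and 783 in WT and 2577, 2539, 2499 and 2440 in KO (log2 change 1.62). The KO libraries of Slpi and Edn1 all lay above the WT libraries. Gadd45a changed by 1.18, Pla1a by 0.78 and Ccl2 by 0.67 in RNA, all called. RNA also differed without LPS. Untreated Slpi RNA was 7.65, 5.27, 5.92 and 7.18 in WT and 189, 220, 186 and 182 in KO. Untreated Gadd45a RNA was 22.4, 24.3, 17.8 and 16.9 in WT and 251, 235, 226 and 213 in KO. Edn1 and Ccl2 RNA was likewise higher in each untreated KO library than in any untreated WT library. The untreated differences were not tested.

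Other strong rises at the end went with lower RNA or with no call. Csrnp1 RNA was 2204, 2006, 2072 and 2086 in WT with LPS and 845, 813, 826 and 885 in KO (log2 change -1.31, SE 0.0578, adjusted p = 7.58e-11, limma), opposite to its end region. Isg15 RNA was 7476, 6721, 7991 and 13965 in WT and 6175, 6024, 6077 and 5924 in KO (log2 change -0.51, SE 0.177, adjusted p = 0.0281, limma). The Isg15 call was lost when KO replicate 2, 3 or 4 was left out (adjusted p 0.0514, 0.0553 and 0.0611). Junb RNA fell by 0.92 and Irf7 RNA by 0.43 on the log2 scale.

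Ccl4 RNA was not called (log2 change -0.12, adjusted p = 0.647), and its sign turned without WT replicate 4 (0.18). Tnfrsf1b RNA was not called either (0.06). Among the falling ends Ctsf RNA was 200.53, 230, 215 and 257 in WT and 127, 121, 139 and 146 in KO (log2 change -0.75), in the direction of its end region, and Shmt2 RNA changed by -0.18. Kbtbd11 RNA rose by 0.54 although its end region fell. Time and libraries differ between the assays, and the part of either in these differences was not tested.

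**Figure D4:**
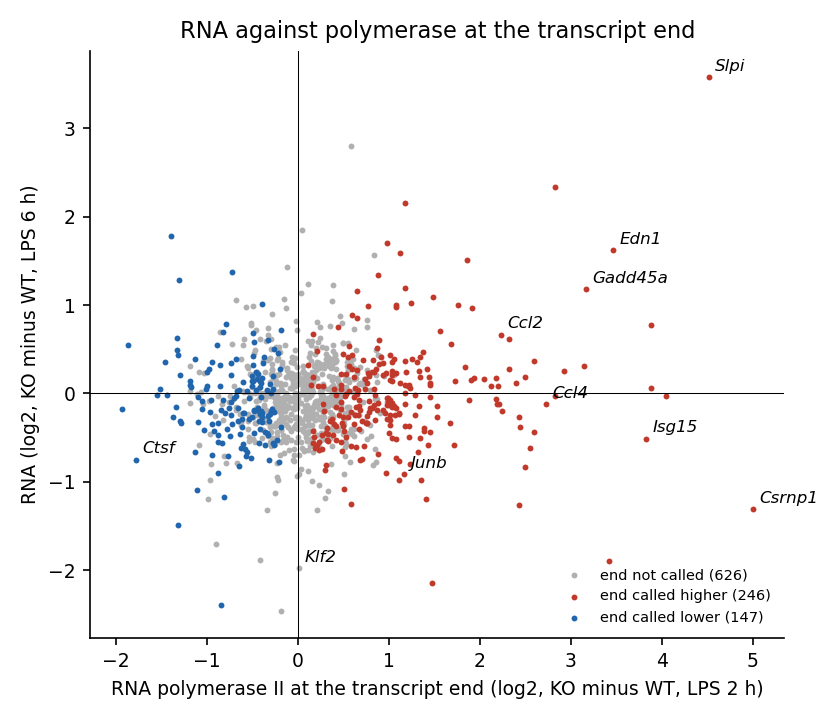
Log2 change of RNA (vertical, KO minus WT, 6 hours of LPS) against the scaled change of polymerase at the transcript end (horizontal, 2 hours), for 1019 ends with both tests. Slpi and Edn1 lie high on both axes (3.58 and 4.52 for Slpi), while Csrnp1 lies at 5.00 for polymerase and -1.31 for RNA, and the 246 ends called higher spread over both sides of 0 in RNA.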

How the data were processed

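RNA polymerase II, MED1 and RNA values are deposited by the authors as reads per 10000000 mapped reads, per the file headers, in HOMER tables on build mm9 with decimal commas. The submitters' processing notes name Bowtie2, BWA, HISAT2, HOMER, MACS2, DESeq2 and edgeR without versions or roles. Low values were whole multiples of 1 read to within 0.05 of a read, so reads were recovered. They were scaled by a trimmed mean of M values, a pseudocount of 1 was added, and log2 values were tested in R 4.3.3 with limma 3.58.1 (two-sided, Benjamini-Hochberg over all features), with precision weights for ChIP-seq and a robust trend over 16 libraries for RNA. A feature was tested with 10 reads or more at median depth in 2 libraries (4 for RNA) and 15 in all. Sequences were read with pysam 0.24.0, figures drawn with matplotlib 3.10.9, and summaries made in Python 3.11.15 (scipy 1.17.1, numpy 2.4.6, pandas 2.3.3). Mapped reads ran from 10230448 to 11113625 (polymerase), 9793462 to 11932305 (MED1) and 12094940 to 22968591 (RNA).

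Uniform background was the reads outside the regions per base of mm9. Reads were simulated for the real regions with a dispersion of 0.005 and no background difference between genotypes. The 200 ends changed 2-fold were drawn from those with a mean over 50 reads. Of these 184 were recovered, and 23 of 22353 unchanged regions were called. Recovery at ends with fewer reads was not simulated. For the end minus promoter difference 11 of 22 were recovered. Gene names of annotated transcripts come from RefSeq (GRCm38.p6, names only), promoters from the deposited gene column. Transcript ends were matched to RNA by accession, then symbol.

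Members, gene lists and rules were chosen with earlier results of these data known. Named genes were the 8 largest called rises and falls (50 reads per 10000000 or more in the higher group, libraries not overlapping after scaling), the 5 largest called differences from the promoter in each direction at that level, the 5 highest WT ends and up to 4 members per list by size of change. A gene that met the rule is not reported here. Same-numbered libraries did not deviate together (correlation -0.013 for polymerase, -0.0011 for MED1 and -0.063 to 0.039 for RNA).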

Additional observations from a re-analysis of the deposited data

Results flagged for a closer look

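RNA of the named genes was screened for a library far from the other 3 of its LPS group. Of 50 groups 4 held such a library, and chance alone gives about 1 in 20. In the WT libraries with LPS Bola1 stood at 329 in 1 library against 154 to 172 reads per 10000000 in the others, and Gadd45a at 164 against 88.4 to 99.3. Both high values are those of replicate 4. In the KO libraries with LPS Ccl2 stood at 37124 in replicate 2 against 34585 to 35000 in the others, and Fkbp15 at 792 in replicate 4 against 846 to 857.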

How the results depend on the processing

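The scaling sets the direction. With library totals in place of the trimmed mean, 32 ends were higher and 1105 lower (median -1.71), 2 and 208 promoters of the same genes (median -2.07), and 0 and 476 MED1 regions, while the median end minus promoter difference was 0.50. Under totals Mcl1 (-1.10), Kcnn4 (-1.61), Junb (-0.71), Klf2 (-1.87), Irf7 (-0.50), Oas1a (-1.55), Ddx58 (-1.41), Npc2 (-0.76), Npc1 (-1.31), Rps20 (-1.13), Rpl15 (-1.37), Rps26 (-1.47), H4c17 (-1.05), Cstf1 (-1.80) and Eif5a (-1.44) turned negative. Median-of-ratios factors gave 38 and 10 gene differences, near the 39 and 10 reported.

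Subtracting a uniform background, chosen after seeing the data, turned the median of the ends to -0.082 (all regions -0.20), left 39 promoters of the same genes lower (median -0.14), 10 genes with a higher difference (median 0.032), and a share difference of 0.27 percentage points instead of 0.11. It turned Fzr1 (0.059), Npc1 (-0.13), Rps18 (0.00018) and Cstf1 (-0.25). Pairing by the gene of the annotated transcript, also added later, with background subtracted gave 13 higher and 20 lower (median -0.012). Only ends of the named gene's own transcript, a smaller set, gave 159 (26.2%) higher and 81 (13.3%) lower of 608 ends. The shares over all ends were 24.2% and 14.5%. In that set 11 and 2 of 121 gene differences were called. Ends without a start, also added later and a smaller set, gave 191 and 53 of 830 (median 0.19), and 9 and 2 of 164 MED1 regions. A pseudocount of 5 gave 16 genes with a lower difference (median 0.34). Requiring the centre of the end region inside the site gave 21.4% with MED1, 5.88% with PU.1, 5.46% with JunB and 25.2% with ATAC-seq.

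Leaving out 1 library at a time gave end medians of 0.084 to 0.17, promoter medians of -0.23 to -0.18, difference medians of 0.43 to 0.49, 22 to 36 MED1 regions higher and 4 to 13 lower, and 160 to 281 genes higher in RNA, the last without WT replicate 4. Signs turned for Klf2 (range -0.083 to 0.094, -0.025 without WT replicate 2, -0.083 without KO replicate 1), Ddx58 (range -0.51 to 0.86, lowest without KO replicate 2) and Cstf1 (-0.083 without WT replicate 1, -0.054 without KO replicate 1). In RNA they turned without WT replicate 4 for Bola1 (0.27, range from -0.12), Ccl4 (0.18, range from -0.26) and Zfp710 (-0.20), and for Bola1 without KO replicate 2 (0.012) or 3 (0.0013). With 1 library left in a group, that library is assumed to vary like the others.

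With the replicate number as a block, 300 ends were higher and 170 lower, and 49 genes had a higher and 15 a lower difference. The numbers are shared by name only. The causes of these shifts were not tested. The planned count tests with edgeR and DESeq2 were not run, since the deposited values are normalized and written with decimal commas. Depth limits ends with few reads, such as Tnip1 and Ddx58, most.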
